A study of Mus musculus with 9 samples.

Results

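The genes described here are 10 genes of the antioxidant defence and of metal buffering, namely Mt1, Mt2, Hmox1, Nqo1, Gclc, Gclm, Txnrd1, Srxn1, Sod2 and Cat. They were given by name, and their symbols were matched to the Ensembl identifiers of the count files. The rule uses no measured value, but the names were chosen with earlier results of these data known. All 10 were found among the 46078 genes listed for cultured cells and the 38293 genes listed for muscle, and all 10 passed edgeR's filter on low counts in both comparisons of cultured cells.

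RNA of 9 mouse samples, labelled as strain C57BL/6, was sequenced. GAS is the gastrocnemius muscle of untreated female mice (C57Bl6/J in the study's methods) of 8 to 12 weeks (n = 3), and the whole tissue was snap-frozen. MB are control primary myoblasts (n = 2), which were grown on Matrigel in DMEM and Ham's F-10 with horse serum (10%), FBS (20%) and basic FGF at 10 ng/ml, and which received PBS. Lactate-treated MB (n = 2) received 10 mM sodium-L-lactate in the same volume of PBS. MT are myotubes (n = 2), into which MB differentiated within 3 days in DMEM with 2% horse serum, so that differentiation cannot be told apart from the change of medium and serum. No sample carried a genetic change. The labels count every sample as a separate biological replicate. Counts are given as CPM, counts scaled to library size after TMM normalization, and levels of different genes are set beside each other only as RPKM, which is CPM per kilobase of exonic length. Since each library was scaled to its own total, fewer cells of a type and less RNA per cell cannot be told apart.

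Most of these genes belong to 2 control circuits. The transcription factor NRF2 (Nfe2l2) is held in the cytoplasm and marked for degradation by KEAP1. When cysteines of KEAP1 are oxidized or alkylated, NRF2 enters the nucleus and binds, with a small MAF protein, to antioxidant response elements near genes such as Nqo1, Gclc, Gclm, Txnrd1 and Srxn1, and near Hmox1, where BACH1 competes as a repressor. The metallothionein genes Mt1 and Mt2 are induced by the zinc sensor MTF1 through metal response elements and also respond to glucocorticoids. Sod2 and Cat act outside these circuits in large part, SOD2 in the mitochondrial matrix and catalase in peroxisomes.

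To show the DNA on which these factors act, the 250 bases before a RefSeq start site were read for the genes on which the results turn, on assembly GRCm38.p6 and in the direction of transcription. RefSeq promoter entries were matched for 8 of the 10 genes, all but Hmox1 and Gclc. Capitals mark matches, on either strand, to the core of the antioxidant response element (TGACNNNGC or TGAGNNNGC) and to the core of the metal response element (TGCGCNC or TGCACNC), and in one place matches to both overlap. The Gclm window lies at chr3:122245307-122245556 on the plus strand, the Txnrd1 window at chr10:82858956-82859205 on the plus strand, the Srxn1 window at chr2:152105274-152105523 on the plus strand, the Mt2 window at chr8:94172368-94172617 and the Mt1 window at chr8:94178839-94179088, both on the plus strand.
Gclm: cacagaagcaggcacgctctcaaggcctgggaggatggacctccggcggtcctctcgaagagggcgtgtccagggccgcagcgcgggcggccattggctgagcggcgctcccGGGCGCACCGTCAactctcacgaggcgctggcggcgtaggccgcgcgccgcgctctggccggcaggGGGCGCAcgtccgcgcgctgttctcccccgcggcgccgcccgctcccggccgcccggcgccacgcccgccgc
Txnrd1: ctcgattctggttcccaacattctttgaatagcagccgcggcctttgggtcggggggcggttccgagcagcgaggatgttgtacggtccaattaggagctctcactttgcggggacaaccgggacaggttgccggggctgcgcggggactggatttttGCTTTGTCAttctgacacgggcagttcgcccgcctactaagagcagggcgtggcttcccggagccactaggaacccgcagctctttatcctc
Srxn1: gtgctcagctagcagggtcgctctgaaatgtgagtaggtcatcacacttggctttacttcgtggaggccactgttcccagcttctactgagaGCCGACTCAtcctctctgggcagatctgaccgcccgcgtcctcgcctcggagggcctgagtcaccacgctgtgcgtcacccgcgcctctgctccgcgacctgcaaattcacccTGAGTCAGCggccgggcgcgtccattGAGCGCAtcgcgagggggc
Mt2: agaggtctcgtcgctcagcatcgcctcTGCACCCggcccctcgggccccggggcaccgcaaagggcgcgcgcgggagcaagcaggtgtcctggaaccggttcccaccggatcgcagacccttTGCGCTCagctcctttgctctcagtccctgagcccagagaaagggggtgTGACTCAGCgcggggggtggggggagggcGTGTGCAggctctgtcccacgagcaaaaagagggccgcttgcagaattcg
Mt1: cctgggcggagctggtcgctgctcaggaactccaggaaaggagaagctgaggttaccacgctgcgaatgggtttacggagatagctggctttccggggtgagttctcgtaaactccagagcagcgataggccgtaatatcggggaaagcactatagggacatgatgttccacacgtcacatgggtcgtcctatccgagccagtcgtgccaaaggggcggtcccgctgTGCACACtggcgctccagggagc

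An antioxidant response element core was found in 1 place each before Gclm, Txnrd1 and Mt2 and in 2 places before Srxn1. Such a core stood in 23.0% of all 32851 RefSeq windows of 250 bases. The core before Gclm began 134 bases upstream of the start site and overlapped one of 2 metal response element cores there. That before Txnrd1 began 92 bases upstream of the start site. GENCODE places the first bases of principal Txnrd1 transcripts at 82859179 and 82859207, next to the end of this window, while the windows of the other 2 RefSeq starts of Txnrd1 held no match to either core. The Mt2 window held 3 metal response element cores, a number reached or exceeded in 1.26% of all windows, and the Mt1 window held 1, whereas 21.4% of all windows held at least 1. The Mt1 window ends near the first of 3 annotated starts of coding transcripts, at 94179082, and lies upstream of those at 94179211 and 94179241. The Mt2 window, which ends at 94172617, lies upstream of the annotated starts at 94172664 and 94172860. The bases directly before these Mt2 starts were not read. No match to either core was found in the windows of Nqo1, Sod2 and Cat, and bases further upstream were not read. A match is a description of these letters and not a measured binding site.

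The MB libraries held 8974146 and 7770793 counts, the MT libraries 10839516 and 7856301, the lactate-treated MB libraries 7415628 and 5198247, and the GAS libraries between 19307793 and 19941574. A count of 3 corresponds to between 0.223 and 0.533 CPM in cultured cells and to at most 0.156 CPM in GAS, on the same TMM-normalized scale, a limit that covers counting error only. All 7 myotube and myofiber markers were called higher in MT, beside 11.0% of all genes tested. Myog had 85.0 and 37.1 CPM in MB against 739 and 1025 CPM in MT. Of 5 myoblast markers, 1 was called lower in MT, Pax7, beside 6.86% of all genes tested called lower. Pax7 had 25.1 and 20.6 CPM in MB against 1.04 and 1.65 CPM in MT. The other myoblast markers were not called, with a log2FC of -1.93 for Myod1, -0.999 for Myf5, -0.16 for Cdh15 and 2.05 for Des, and the 5 summed to 1154 to 2296 CPM in MB and 1619 to 3651 CPM in MT. Replicate 1 of MT stood apart, with counts on 28599 genes against 15548 to 17965 in the other cultured libraries. A ribosomal RNA gene (CT010467.1) took 9.20% of counts in replicate 1 of MB and 13.8% in replicate 1 of lactate-treated MB, against at most 0.575% in the other cultured libraries.

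The comparison of MT with MB asked how the expression of these genes differed after differentiation. The 2 genes that differed most were Txnrd1, which encodes the cytosolic thioredoxin reductase, and Gclm, which encodes the modifier subunit of the enzyme that limits glutathione synthesis. Txnrd1 was 11.1-fold and Gclm 10.7-fold lower in MT. Hmox1, the inducible heme oxygenase, was 3.03-fold lower, and none of the 10 genes was called higher. A gene was called at an adjusted p under 0.05 (edgeR's quasi-likelihood test, Benjamini-Hochberg adjustment over all 12921 genes tested) and an absolute log2FC over 0.5. Thus 3 of the 10 genes were called, all lower, beside 17.9% of all genes tested, 11.0% higher and 6.86% lower. The median log2FC of the 10 genes was -0.87, beside 0.07 over all genes tested. The values of MT and MB did not overlap for 8 of the 10 genes (6 lower, 2 higher), and they did not overlap for 62.1% of all genes tested (29.2% lower, 32.9% higher).

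**Figure D1:**
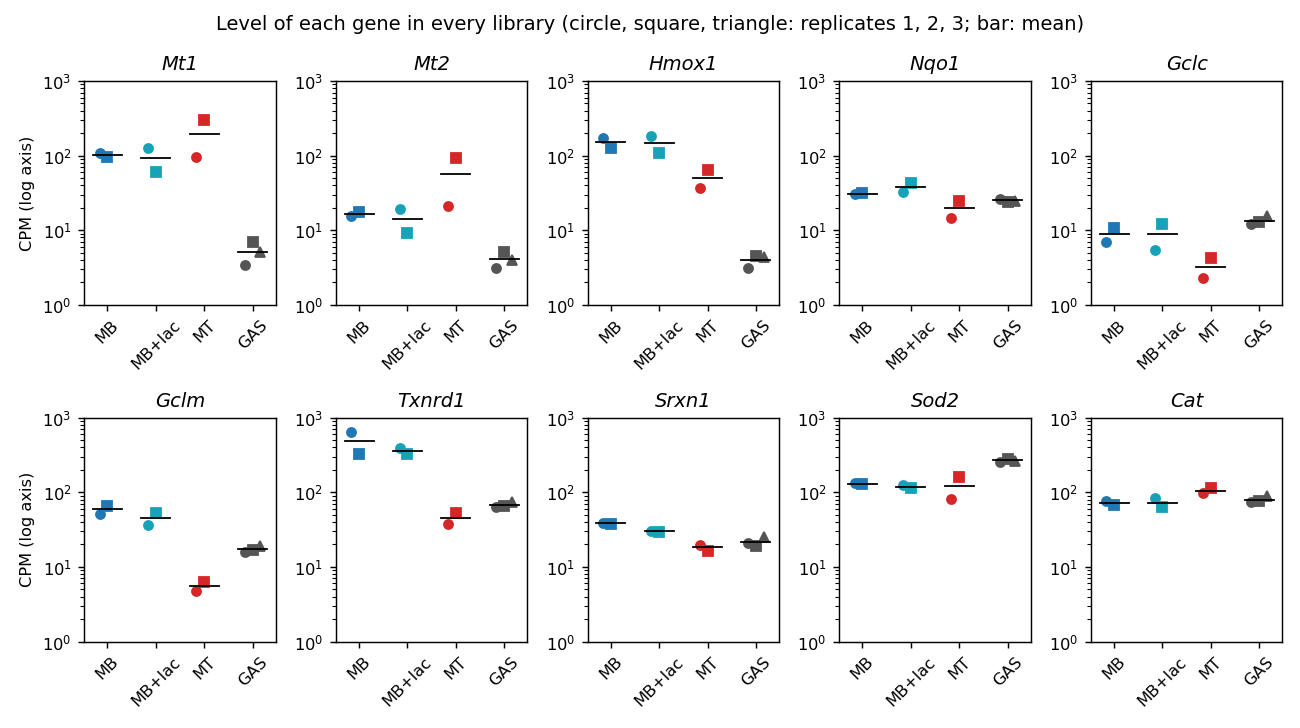
Level of each of the 10 genes in every library, in CPM on a log axis, for MB, lactate-treated MB (MB+lac), MT and GAS. Points are libraries, with shapes for replicate numbers, and bars are group means. Txnrd1, Gclm and Hmox1 lie lower in both MT libraries than in both MB libraries, and Mt1 and Mt2 are spread widely between the MT libraries.

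Of the thioredoxin arm, Txnrd1 (chr10:82833951-82897712, plus strand) had 638 and 327 CPM in replicates 1 and 2 of MB and 37.1 and 52.5 CPM in MT. Even the lower MB library was therefore several times above the higher MT library, although the MB libraries differed from each other as well. The log2FC was -3.47 ± 0.56 (SE, 95% confidence interval -4.70 to -2.24, adjusted p = 0.00252 by edgeR). Without replicate 1 of MB, which had the high share of ribosomal RNA, the log2FC was -2.82 with an adjusted p of 0.000438. Srxn1 (chr2:152105516-152111376, plus strand) encodes sulfiredoxin, which restores peroxiredoxins that were oxidized too far. It had 39.1 and 37.8 CPM in MB and 20.0 and 16.5 CPM in MT. The groups did not overlap, but the log2FC of -1.07 ± 0.48 (SE) was not called (edgeR adjusted p = 0.149).

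Glutathione is made by glutamate-cysteine ligase, whose catalytic subunit is encoded by Gclc and whose modifier subunit by Gclm. Gclm (chr3:122245557-122270732, plus strand) had 51.5 and 66.3 CPM in MB against 4.77 and 6.23 CPM in MT, so that every MT library lay far below both MB libraries. The log2FC was -3.42 ± 0.51 (SE, 95% confidence interval -4.54 to -2.30, edgeR adjusted p = 0.00161). Gclc (chr9:77754535-77794485, plus strand) had 6.99 and 10.8 CPM in MB and 2.31 and 4.20 CPM in MT. These values did not overlap either, but the log2FC of -1.46 ± 0.70 (SE) was not called (edgeR adjusted p = 0.176, 95% confidence interval -3.01 to 0.09). Whether the change of Gclm differed from that of Gclc was not tested.

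Hmox1 (chr8:75093621-75100589, plus strand) encodes the enzyme that opens the heme ring and releases iron, carbon monoxide and biliverdin. It had 172 and 128 CPM in MB and 36.3 and 65.1 CPM in MT, and the groups did not overlap. The log2FC was -1.60 ± 0.46 (SE, 95% confidence interval -2.62 to -0.58, edgeR adjusted p = 0.0372). This call rested on all of the libraries but replicate 2 of MB. The adjusted p was 0.0564 without replicate 1 of MB, 0.377 without replicate 1 of MT and 0.086 without replicate 2 of MT, and 0.0503 when all 6 cultured libraries were fitted together. Nqo1 (chr8:107388225-107403206, minus strand), a quinone reductase often taken as a readout of NRF2, had 30.1 and 31.6 CPM in MB and 14.6 and 24.9 CPM in MT. Both MT values were below the MB values, but with a log2FC of -0.66 ± 0.49 (SE) the gene was not called (edgeR adjusted p = 0.382).

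The metallothioneins, small cysteine-rich proteins that bind zinc and copper, showed the widest spread between the MT libraries. Mt2 (chr8:94172664-94173568, plus strand) had 15.7 and 17.4 CPM in MB, and 20.9 and 91.9 CPM in replicates 1 and 2 of MT. Mt1 (chr8:94179082-94180327, plus strand) had 108 and 96.2 CPM in MB, and 96.8 and 299 CPM in MT. High values of both genes were thus found in replicate 2 of MT, while replicate 1 was close to MB. The log2FC of Mt2 was 1.72 ± 0.63 (SE) with an adjusted p of 0.0837 by edgeR, and that of Mt1 was 0.91 ± 0.53 (SE) with an adjusted p of 0.259, so neither was called. Without replicate 2 of MT the log2FC was 0.40 for Mt2 and -0.026 for Mt1. Without replicate 1 of MT it was 2.40 for Mt2, which was then called (edgeR adjusted p = 0.0196), and 1.47 for Mt1, which was not. Mt2 was also called by the DESeq2 Wald test, with an adjusted p of 0.0389, and without a filter on low counts, with an adjusted p of 0.0111. The longest stretch that a transcript of Mt1 shares exactly with one of Mt2 is 20 bases. The ratio of Mt1 counts to Mt2 counts was 6.88 and 5.54 in MB, 4.63 and 3.25 in MT, and 1.10 to 1.38 in GAS. This is not a ratio of levels, since the exonic lengths are 1246 and 588 bases. The GAS libraries were also made by another protocol.

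Sod2 (chr17:13006846-13040063, plus strand) encodes the manganese superoxide dismutase, which turns superoxide into hydrogen peroxide. It had 133 and 129 CPM in MB, and the MT values of 80.6 and 162 CPM lay on either side of these. The log2FC was -0.14 ± 0.45 (SE, edgeR adjusted p = 0.862), with a 95% confidence interval from -1.14 to 0.86. Cat (chr2:103453849-103485160, minus strand), which encodes catalase, an enzyme that breaks hydrogen peroxide down to water and oxygen, had 76.2 and 66.8 CPM in MB and 98.7 and 113 CPM in MT. Both MT values were higher, but the log2FC of 0.56 ± 0.41 (SE) was not called (edgeR adjusted p = 0.386).

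**Figure D2:**
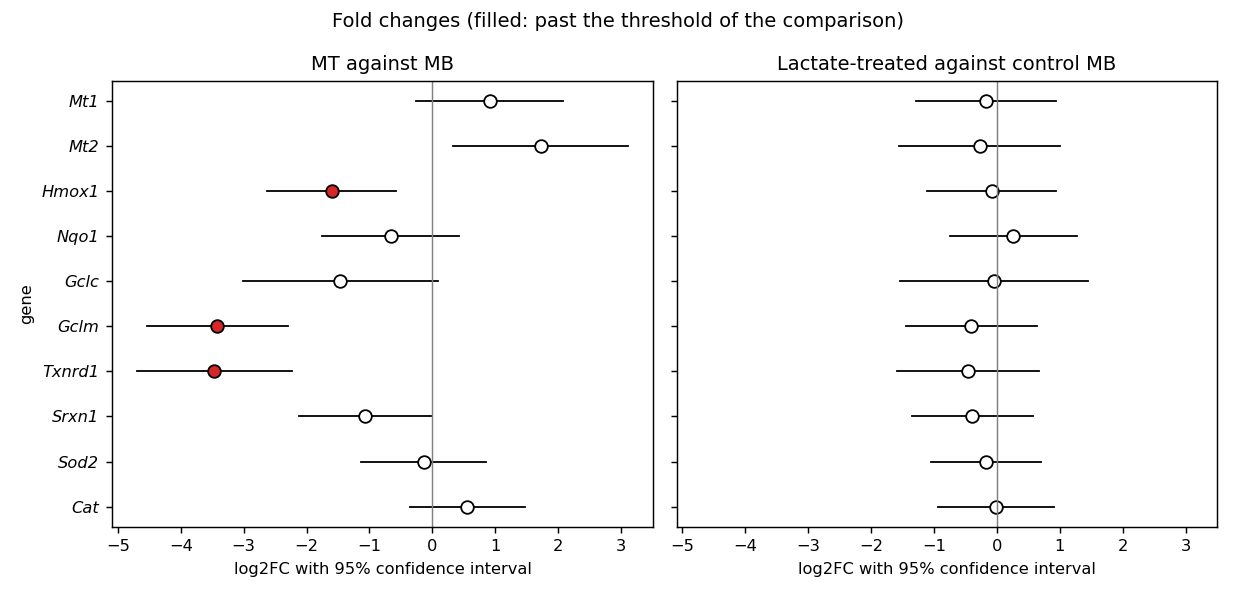
The log2FC of each gene with its 95% confidence interval, for MT against MB on the left and for lactate-treated against control MB on the right. Filled points passed the threshold of their comparison. Txnrd1, Gclm and Hmox1 are filled on the left, no gene is filled on the right, and every interval on the right includes 0.

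Across the 6 cultured libraries, the 10 genes did not follow one pattern. On the scale of log2(CPM + 1), Gclm had a Pearson r of 0.96 with Txnrd1, of 0.93 with Srxn1 and of 0.89 with Gclc, and Mt1 had an r of 0.97 with Mt2. Cat had an r of -0.91 with Gclm and of 0.86 with Mt2. Sod2 had an r of 0.06 with Cat and of 0.26 with Gclm. These values describe 6 libraries that fall into MT and MB, and a difference between these groups alone gives a high r. Among 8877 genes with a mean of at least 10 CPM, the 5 genes outside the list with the highest r were Triap1, Tpd52l2, Gnptg, Ebp and Mgp for Mt1 (0.98 to 0.99), Cap1, Slc25a22, Mrtfa, Tnpo2 and Cpt1a for Nqo1 (0.98), and Pold4, Alkbh3, Spsb2, Cdkn1a and Pex19 for Cat (0.99 to 1.00). Mgp, which encodes matrix Gla protein, had 83.3 CPM in replicate 1 and 1627 CPM in replicate 2 of MT, so that it shared with Mt1 the high value of replicate 2. Cdkn1a, which encodes the cell cycle inhibitor p21, had 427 and 272 CPM in MB and 1282 and 1647 CPM in MT. Pex19 encodes a protein that brings membrane proteins to the peroxisome, the organelle in which catalase acts. Its log2FC of 1.07 in MT was not called (edgeR adjusted p = 0.141), nor was any of the 10 tested peroxisome genes.

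The median log2FC of 9 regulators of NRF2 targets was 0.41. Of these 9, 1 was called and it was higher in MT, beside 17.9% of all genes tested called. This gene was Nfe2l1, which encodes a relative of NRF2 that controls proteasome genes. Nfe2l1 had 140 and 103 CPM in MB and 282 and 507 CPM in MT, with a log2FC of 1.67 ± 0.49 (SE, edgeR adjusted p = 0.0396). Its adjusted p was 0.0681 without replicate 1 of MT, 0.269 without replicate 2 of MT and 0.0845 without replicate 2 of MB. Nfe2l2, the gene of NRF2 itself, had 193 and 196 CPM in MB and 127 and 253 CPM in MT, values that overlap, and Keap1 had 65.6 and 36.3 CPM in MB and 41.2 and 52.1 CPM in MT. The log2FC of Nfe2l2 was -0.06 ± 0.46 (SE) and that of Keap1 was -0.16 ± 0.48 (SE), with edgeR adjusted p of 0.943 and 0.856. Bach1 was low, with 1.72 and 2.53 CPM in MB and 6.18 and 6.74 CPM in MT, and it was not called (log2FC 1.61 ± 0.75 (SE), edgeR adjusted p = 0.163). Mafg, which encodes a small MAF partner of NRF2, was not called either (log2FC -0.68 ± 0.47 (SE), edgeR adjusted p = 0.343). RNA levels do not measure the stability or the location of NRF2, through which KEAP1 acts.

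**Figure D3:**
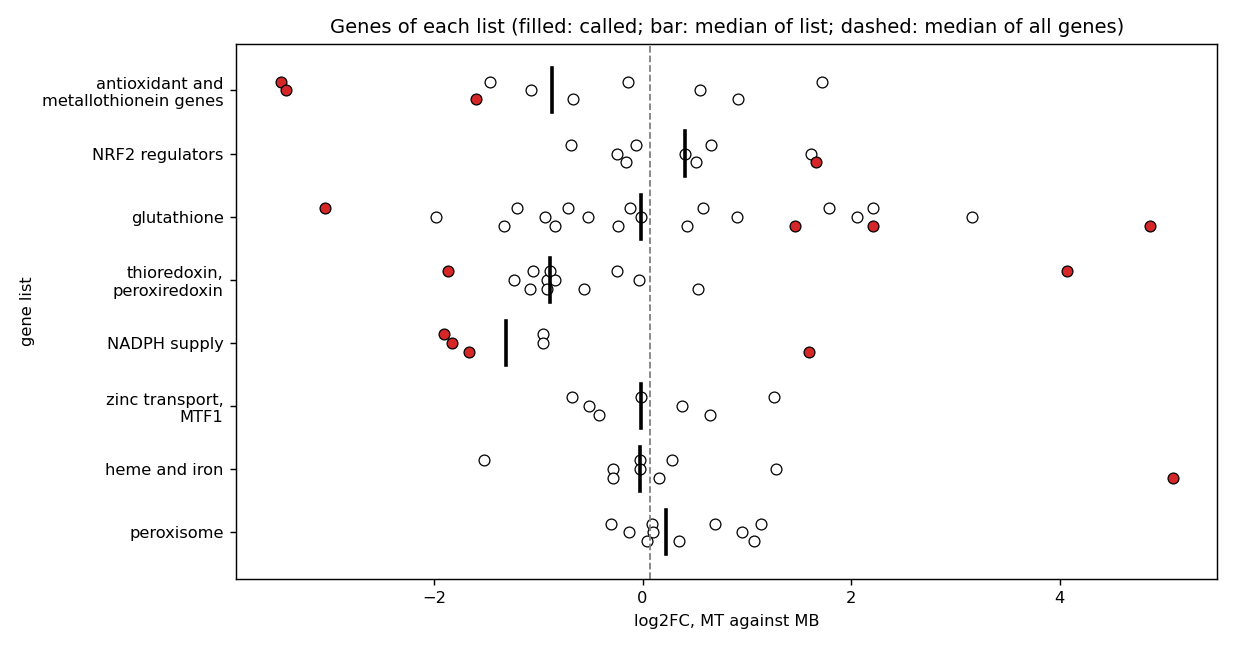
The log2FC of MT against MB for every tested gene of the 10 genes and of 7 related gene lists. Points are genes, filled where called, bars are list medians and the dashed line is the median of all genes tested. Genes called in opposite directions appear within the glutathione, thioredoxin and NADPH lists, and no gene of the zinc and peroxisome lists was called.

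The glutathione list holds enzymes that make, use or restore glutathione. Of its 21 tested genes, 3 were called higher and 1 lower, a share near the 17.9% over all genes tested, with a median log2FC of -0.01. Gsr, which encodes the reductase that regenerates glutathione, had 118 and 48.8 CPM in MB and 10.3 CPM in both MT libraries, with a log2FC of -3.05 ± 0.57 (SE, edgeR adjusted p = 0.0056), or -2.18 without replicate 1 of MB. Gpx3, which encodes a secreted glutathione peroxidase, rose from 3.19 and 1.45 CPM in MB to 24.8 and 118 CPM in MT (log2FC 4.87 ± 0.81 (SE), edgeR adjusted p = 0.00306), and the log2FC was 3.44 without replicate 2 of MT, 5.56 without replicate 1 of MT and 5.63 without replicate 1 of MB. Gstm2, which encodes a glutathione transferase, rose from 20.0 and 10.5 CPM to 86.4 and 55.1 CPM (edgeR adjusted p = 0.0194). Gstm2 was no longer called without replicate 1 of MT, with an adjusted p of 0.153, and had a log2FC of 2.84 without replicate 1 of MB. The other called gene was Gss, which encodes glutathione synthetase and was named after its values were seen. It had 40.8 and 40.7 CPM in MB and 103 and 122 CPM in MT (edgeR adjusted p = 0.0361), and was no longer called without replicate 1 or replicate 2 of MT.

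Of 13 tested genes of the thioredoxin and peroxiredoxin list, 1 was called higher and 1 lower, beside 17.9% of all genes tested called. The median log2FC of this list was -0.88. Txnip, which encodes an inhibitor of thioredoxin, had 3.92 and 2.17 CPM in MB and 48.8 and 55.2 CPM in MT (log2FC 4.07 ± 0.58 (SE), edgeR adjusted p = 0.00132). Prdx6, which encodes a peroxiredoxin, had 674 and 592 CPM in MB and 162 and 188 CPM in MT (log2FC -1.86 ± 0.48 (SE), edgeR adjusted p = 0.0231), and was no longer called without replicate 1 or replicate 2 of MT. Both systems draw on NADPH. Of 6 genes listed for its supply, which include non-oxidative genes of the pentose phosphate pathway, 3 were called lower and 1 higher. Over all genes tested, 6.86% were called lower and 11.0% higher. Pgd and G6pdx, of the oxidative pentose phosphate pathway, had a log2FC of -1.91 ± 0.53 (SE) and -1.66 ± 0.45 (SE), and Tkt, of its non-oxidative arm, had -1.83 ± 0.50 (SE), with edgeR adjusted p of 0.0326, 0.0274 and 0.0306. Idh1, the cytosolic isocitrate dehydrogenase, was named after its values were seen. It had 46.6 and 60.0 CPM in MB and 162 and 156 CPM in MT (edgeR adjusted p = 0.0257). Each of these 4 genes lost its call without replicate 1 of MT, 3 of them without replicate 2 of MT (all but Pgd), and Pgd and Tkt without replicate 1 of MB, where the log2FC of Tkt was -1.20.

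No gene of the zinc list was called among 7 tested, with a median log2FC of -0.01. The lists of other superoxide dismutases, of heme and iron handling and of peroxisomes held 1 of 3, 1 of 9 and 0 of 10 tested genes called. Over all genes tested, 17.9% were called. Mtf1, which encodes the zinc sensor upstream of Mt1 and Mt2, had 9.19 and 21.1 CPM in MB and 16.2 and 22.8 CPM in MT. The brain and epithelial metallothioneins Mt3 and Mt4 had at most 1 count in any cultured library, and Slc30a1, a zinc exporter that MTF1 also induces, had at most 13, so none of these was tested. Slc39a1, a zinc importer, had the largest log2FC of the zinc list at 1.26 ± 0.45 (SE), with an edgeR adjusted p of 0.0765. Sod3, the extracellular superoxide dismutase, had 1 and 3 counts in the MB libraries, at or under the limit of 3 counts, against 26.0 and 38.3 CPM in MT. Slc40a1, which encodes the iron exporter ferroportin, had 1.84 and 0.964 CPM in MB and 53.7 and 42.5 CPM in MT (log2FC 5.08 ± 0.64 (SE), edgeR adjusted p = 0.000609), and its log2FC was 5.70 without replicate 1 of MB.

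Markers of other cells and of the cell cycle differed between the same libraries. The summed level of 6 fibroblast markers was 17.5 and 9.40 CPM in MB and 13573 and 1896 CPM in replicates 1 and 2 of MT, most of it from Col1a1. Lum and Tcf21 were at 0 in MB, and Tcf21 was at 0 in MT. Of 6 cycling genes, 5 were called lower in MT, beside 6.86% of all genes tested called lower. In replicates 1 and 2, the 6 genes summed to 1507 and 1948 CPM in MB and to 339 and 352 CPM in MT. The 5 endothelial markers summed to at most 0.245 CPM in MB and to 14.2 and 0.254 CPM in replicates 1 and 2 of MT. Cdh5, Kdr, Tek and Cldn5 were at 0 in MB, and Cdh5, Kdr and Cldn5 also in replicate 2 of MT. The 6 macrophage markers summed to at most 1.72 CPM in MB and to 20.2 and 4.07 CPM in replicates 1 and 2 of MT. Ptprc, Adgre1, C1qa and Lyz2 were at 0 in MB, and Ptprc, Adgre1 and C1qa also in replicate 2 of MT. The adipocyte, erythroid and Schwann cell lists each summed to at most 0.362 CPM in MB. In replicates 1 and 2 of MT they summed to 3.95 and 0.254 CPM, 8.26 and 0.763 CPM, and 3.42 and 0.890 CPM. For each of these lists of other cells the higher MT value was thus in replicate 1, the library with counts on 28599 genes. The part of these markers in the differences of the 10 genes was not tested.

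Lactate-treated MB were compared with control MB to ask whether 10 mM lactate changed the expression of these genes. None of the 10 genes passed the threshold of an unadjusted p under 0.01 and an absolute log2FC over 0.5 (edgeR's quasi-likelihood test), beside 0% of all 11804 genes tested. The paper, also with edgeR and at this threshold, reports a small group of genes changed by lactate, which the fit used here did not recover. At an unadjusted p under 0.05, 5 genes passed in the whole table (0.0424%) and none of the 10, and the DESeq2 Wald test called 1 gene at the main threshold, which was none of the 10. The log2FC of the 10 genes ran from -0.46 for Txnrd1 to 0.26 for Nqo1, with a median of -0.17 beside a median of 0.00 over all genes, and every edgeR adjusted p was 1.00. The 95% confidence intervals were wide. That of Txnrd1 ran from -1.59 to 0.66, that of Gclm from -1.45 to 0.63 and that of Nqo1 from -0.75 to 1.27, so that a log2FC of -1 was within the intervals of Txnrd1 and Gclm and one of 1 within that of Nqo1. For Cat, the interval from -0.93 to 0.92 held neither.

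Set side by side by replicate number, Gclm had 51.5 CPM in control and 36.9 CPM in lactate-treated MB for replicate 1, and 66.3 and 53.5 CPM for replicate 2. Srxn1 had 39.1 and 30.6 CPM for replicate 1 and 37.8 and 29.3 CPM for replicate 2, and its groups did not overlap. Both were therefore lower with lactate at each replicate number, by 0.47 and 0.30 for Gclm and by 0.34 and 0.36 for Srxn1 on the scale of log2(CPM + 1). Sod2 was lower at both numbers too, with 133 and 125 CPM for replicate 1 and 129 and 113 CPM for replicate 2. Nqo1 was the gene of the list that was higher at both numbers, with 30.1 and 32.7 CPM for replicate 1 and 31.6 and 42.7 CPM for replicate 2. For the other 6 genes the numbers went in opposite directions. Of all genes tested, 20.3% were lower and 22.7% were higher at both numbers, so that 3 lower and 1 higher among 10 were near these shares. The values of the lactate-treated and control groups did not overlap for Srxn1 and Sod2, which were lower, and for Nqo1, which was higher, beside 11.1% of all genes tested (6.84% lower, 4.28% higher). These directions were the same with RLE size factors.

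**Figure D4:**
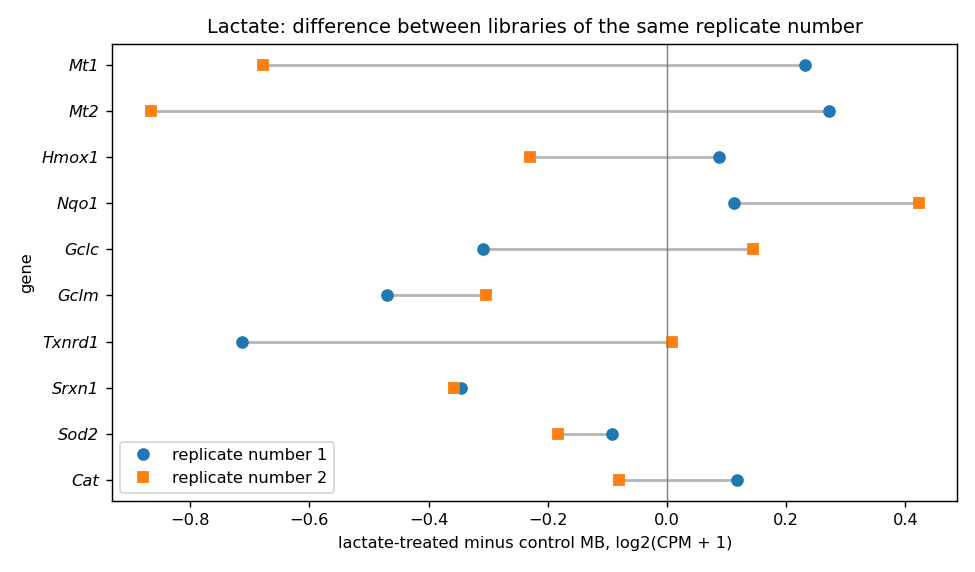
Difference between lactate-treated and control MB for libraries with the same replicate number, on the scale of log2(CPM + 1), for each of the 10 genes. Circles are replicate number 1 and squares replicate number 2. Gclm, Srxn1 and Sod2 lie below 0 at both numbers, Nqo1 above 0 at both, and Mt1, Mt2 and Txnrd1 show the widest gaps between the numbers.

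Txnrd1 had 638 CPM in control and 389 CPM in lactate-treated MB for replicate 1, and 327 and 329 CPM for replicate 2. The difference was thus in replicate 1 only, whose libraries both had the high share of ribosomal RNA. Without replicate 1 of MB the log2FC of Txnrd1 was 0.18. The metallothioneins showed the widest gap between the numbers. Mt1 had 108 and 127 CPM for replicate 1 and 96.2 and 59.7 CPM for replicate 2, and Mt2 had 15.7 and 19.1 CPM for replicate 1 and 17.4 and 9.07 CPM for replicate 2, so that both genes were higher with lactate at number 1 and lower at number 2. Hmox1 had 172 and 183 CPM for replicate 1 and 128 and 109 CPM for replicate 2. Gclc had 6.99 and 5.45 CPM for replicate 1 and 10.8 and 12.1 CPM for replicate 2. Cat had 76.2 and 82.7 CPM for replicate 1 and 66.8 and 63.1 CPM for replicate 2. Of the related lists, no gene was called, and the median log2FC was -0.08 for the NRF2 regulators, 0.14 for glutathione and -0.03 for thioredoxins and peroxiredoxins. Both comparisons share the control MB libraries, so a high or low control value enters both.

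In GAS, the 10 genes were arranged differently from cultured cells. Cat and Sod2 had the highest levels per exonic length in muscle, whereas Hmox1, which was among the highest in MB, was the lowest. The muscle libraries started from poly(A)-selected RNA and those of cultured cells from 5 ng of total RNA by Smart-seq2, so the levels are set side by side without a test. Among the 9874 genes with a mean RPKM over 1 in GAS, the median was 4.61 RPKM, and 6 of the 10 genes were above it. In MB 9 of the 10 genes were above the corresponding median of 7.39 RPKM, and in MT 8 were above 4.93 RPKM.

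Cat had 73.2, 76.5 and 89.6 CPM in GAS replicates 1 to 3, which is 30.5 ± 3.32 RPKM (SD, n = 3). Sod2 had 256, 283 and 263 CPM, or 26.7 ± 1.43 RPKM (SD, n = 3), and the ranges of the 2 genes overlapped by a little. Nqo1 had 26.0, 24.3 and 25.0 CPM, or 16.2 ± 0.58 RPKM (SD, n = 3), and was apart from both neighbours in the order. Txnrd1 followed with 62.9, 65.8 and 73.8 CPM (9.52 ± 0.80 RPKM (SD, n = 3)) and Srxn1 with 21.1, 18.8 and 25.5 CPM (7.74 ± 1.21 RPKM (SD, n = 3)), and their ranges overlapped. Mt2 had 3.10, 5.06 and 4.00 CPM (6.89 ± 1.67 RPKM (SD, n = 3)) and Mt1 had 3.40, 6.99 and 5.10 CPM (4.14 ± 1.44 RPKM (SD, n = 3)). Both metallothioneins were lowest in replicate 1 and highest in replicate 2. Gclc had 11.98, 12.7 and 15.6 CPM (3.56 ± 0.50 RPKM (SD, n = 3)), and its range overlapped that of Mt1. Gclm had 15.7, 16.8 and 19.3 CPM (2.74 ± 0.29 RPKM (SD, n = 3)), and Hmox1 had 3.15, 4.56 and 4.36 CPM (2.30 ± 0.44 RPKM (SD, n = 3)), so that their ranges overlapped.

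**Figure D5:**
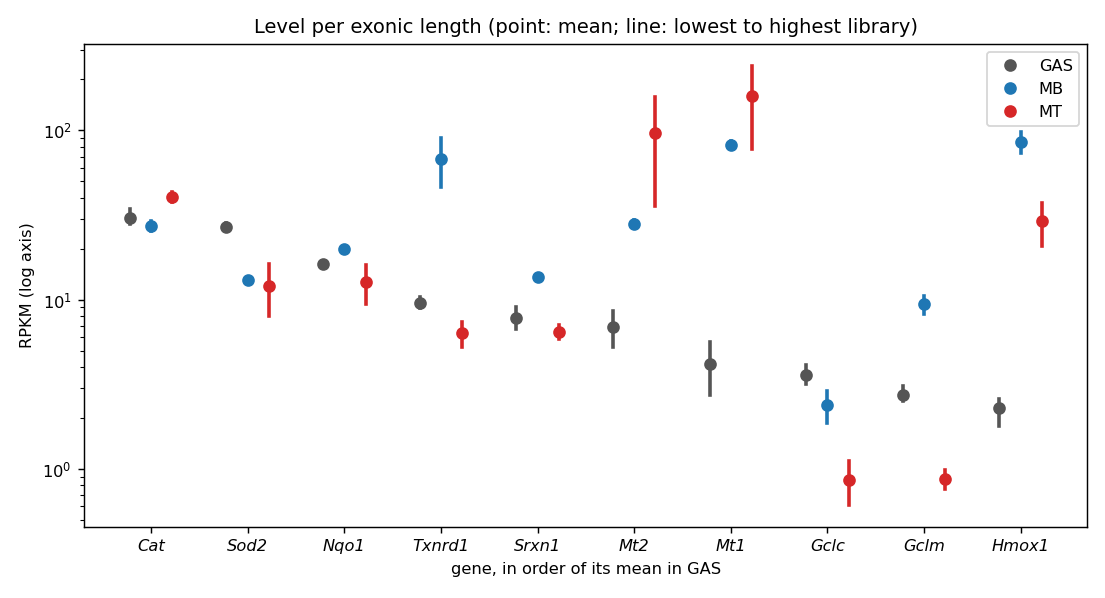
Level per exonic length, in RPKM on a log axis, of the 10 genes in GAS, MB and MT, in the order of the GAS means. Points are means and lines run from the lowest to the highest library of a group. Hmox1, Mt1 and Mt2 in GAS lie below all libraries of MB and MT, and Sod2 in GAS lies above them.

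In MB the order by RPKM was led by Hmox1 (85.7 ± 17.8, SD, n = 2), Mt1 (81.9 ± 6.62, SD, n = 2) and Txnrd1 (68.1 ± 31.0, SD, n = 2), whose ranges overlapped, and it ended with Gclm (9.36 ± 1.67, SD, n = 2) and Gclc (2.37 ± 0.73, SD, n = 2). In MT Mt1 (159 ± 115, SD, n = 2) and Mt2 (96.0 ± 85.4, SD, n = 2) came first. Their ranges overlapped, but Mt1 was higher than Mt2 within each MT library. Cat (40.5 ± 3.86, SD, n = 2) followed, with a range that overlapped that of Mt2. In replicate 1 of MT, Mt2 had 35.6 RPKM and Cat 37.8 RPKM. Gclm (0.87 ± 0.16, SD, n = 2) and Gclc (0.86 ± 0.35, SD, n = 2) were last in MT, with overlapping ranges. The order rests on the length used, in MB as in GAS. All exons and the principal transcript span 1246 and 549 bases for Mt1, 7086 and 3531 for Txnrd1, and 1751 and 1569 for Hmox1. Hmox1 therefore led in MB only with the length of all exons. With the length of the principal transcript in place of all exons, Sod2 rose to 45.6 RPKM in GAS, above Cat at 30.5 RPKM, Txnrd1 to 19.1 RPKM, above Nqo1 at 16.2 RPKM, and Mt1 to 9.40 RPKM, above Mt2 at 7.93 RPKM.

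Regulators and related genes were also read in GAS. Nfe2l2 had between 26.1 and 36.5 CPM in GAS beside 193 and 196 CPM in MB, and Bach1 had between 24.6 and 30.3 CPM beside 1.72 and 2.53 CPM. Slc30a1, which was near the limit of detection in cultured cells, had 5.82 to 9.08 CPM in muscle. Whole muscle held other cells as well. The summed level of 6 fibroblast markers was 366 to 460 CPM, with Tcf21 at 0. That of 5 endothelial markers was 140 to 156 CPM, that of 4 adipocyte markers 127 to 172 CPM, that of 6 macrophage markers 55.8 to 65.7 CPM, that of 3 Schwann cell markers 11.2 to 23.7 CPM and that of 5 erythroid markers 828 to 4261 CPM, while these erythroid markers reached at most 8.26 CPM in MT. All markers of these lists but Tcf21 had counts in GAS. Their part in the levels of the 10 genes was not tested. The 7 myotube and myofiber markers summed to between 126295 and 142786 CPM in GAS.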

How the data were processed

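GAS libraries were prepared from poly(A) RNA and libraries of cultured cells with Smart-seq2. Per the paper's methods and the submitters' processing notes, the authors checked reads with FastQC, trimmed them with Trim Galore 0.6.6, aligned them to mm10 with HISAT2 2.2.1, counted them on genes with featureCounts (Subread 2.0.1) and deposited raw counts. Annotation release, strand and treatment of multiple alignments are not given in the sources used here, so reads of overlapping or antisense genes (Gm45774 at Mt2, Gm17494 and Gm6061 at Gclm, Gm38560, Gm47073 and Eid3 at Txnrd1) may be counted with a gene or left out.

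Symbols, positions and exonic lengths came from GENCODE M21 on the same assembly. The cultured files list 46078 genes, of which 45229 matched, and the GAS files 38293, of which 36429 matched. MT and MB, and lactate-treated and control MB, were each compared in a fit of their libraries with edgeR 4.0.16 (R 4.3.3), with its default low-count filter, TMM factors and its quasi-likelihood test, and without a replicate block. Thresholds were an adjusted p under 0.05 for MT and an unadjusted p under 0.01 for lactate, with an absolute log2FC over 0.5. Both fits were run on simulated data with large planted changes and a fixed spread, which does not bear on small changes or on outlying libraries. Python 3.11.15 with numpy 2.4.6 and pandas 2.3.3 made the other tables. TMM was computed separately for GAS.

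The 10 genes and all lists were chosen with earlier results of these data known. Named are the 10 genes, genes of the NRF2 and zinc lists, cell type markers, and the 5 most alike genes for Mt1, Nqo1 and Cat. Of every other list, at most 3 called genes with groups that do not overlap were to be named. Gss and Idh1 were added to these after their values were seen. Alternatives were RLE size factors, DESeq2 1.42.0, other count filters, a block for the replicate number, a joint fit of all 6 cultured libraries, leaving out each replicate and, for GAS, no TMM, TPM and another length.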

Additional observations from a re-analysis of the deposited data

How the results depend on the processing

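Txnrd1 and Gclm were called lower in MT in each of the 11 alternatives tried. Hmox1 was called in 7 of them and Mt2, not called in the reported fit, in 3. Over the whole table, 2312 genes were called for MT (1425 higher, 887 lower). With at least 10 counts in every library 1444 were called (766 higher), and this filter moved the median of shared genes by 0.11 on the log2 scale. Leaving out each replicate gave between 1244 and 3584 calls, between 956 and 2058 higher and between 288 and 1526 lower, the lowest counts without replicate 1 of MT and the highest without replicate 2 of MB. Of the 10 genes, 1 was called higher with the DESeq2 Wald test, 1 without a filter on low counts, and between 0 and 1 when a replicate was left out, and the gene was Mt2 in each case.

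For lactate, where no gene of the whole table was called, the DESeq2 Wald test called 1 gene, higher, no filter on low counts 1, higher, and the replicate block 13, of which 7 were higher and 6 lower. Leaving out each replicate gave between 0 and 179 calls, between 0 and 178 of them higher and between 0 and 1 lower, the most without replicate 2 of MB. None of the 10 genes was called in any of these. The log2FC of Cat was -0.0096 and turned to 0.052 with RLE size factors and to 0.052 with DESeq2, which moved the median of all genes tested by 0.053.

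Leaving out single replicates turned further signs of values that were not called. In MT against MB the log2FC ran from -0.026 to 1.47 for Mt1, from -0.65 to 0.22 for Sod2, from -0.064 to 0.99 for Mtf1, from -0.57 to 0.30 for Nfe2l2, which was also 0.042 with at least 10 counts in every library, and from -0.58 to 0.42 for Keap1. With lactate it ran from -0.75 to 0.24 for Mt1, from -0.84 to 0.14 for Mt2, from -0.44 to 0.24 for Hmox1, from -0.78 to 0.46 for Gclc, from -0.86 to 0.18 for Txnrd1 and from -0.16 to 0.17 for Cat.

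Deviations of libraries with the same replicate number from their group means had a Pearson r of 0.71 across genes for lactate-treated and control MB and of -0.12 for MT and MB. The MB and lactate-treated MB libraries numbered 1 also shared the high share of ribosomal RNA (9.20% and 13.8%). No label ties equal numbers to a shared culture, there are only 2 numbers, and the reported fits hold no term for the number. The replicate block left 2271 calls for MT (1447 higher and 824 lower), and the same 3 of the 10 genes were called. Of the other genes named as called, Nfe2l1 (edgeR adjusted p = 0.0726), Gss (0.0654) and Prdx6 (0.0545) were not called with the block. With crossed numbers, an alternative chosen after seeing the data, 2059 genes were called. In GAS, 6 of the 10 genes lay above the median of genes over 1 RPKM, against 6 to 8 under the alternatives, with the length of the principal transcript, chosen after seeing the data, giving 7. With 2 libraries per group, p-values rest on a spread estimated mostly across genes. Where the libraries of both groups held 3 counts or fewer, no difference could be measured.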

Other observations

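Glucocorticoid-responsive genes, which share the hormone receptor with the metallothionein genes, did not move in one direction in MT. Of 5 tested, 1 was called higher and 1 lower, beside 11.0% higher and 6.86% lower of all genes tested. Klf9, a transcription factor gene induced by glucocorticoids, had 1.84 and 2.05 CPM in MB and 13.2 and 18.8 CPM in MT (log2FC 3.02 ± 0.65 (SE), edgeR adjusted p = 0.01). Sgk1, which encodes a kinase induced by glucocorticoids and serum, had 161 and 215 CPM in MB and 37.9 and 80.8 CPM in MT (log2FC -1.68 ± 0.47 (SE), edgeR adjusted p = 0.0326), and was no longer called without replicate 1 of MT, with an adjusted p of 0.387, or without replicate 2 of MT, with an adjusted p of 0.0527. The median log2FC of the list was 0.50. With lactate no gene of the list was called, and its median log2FC was 0.13.

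Of genes of the peroxisome, the organelle of catalase, 8 of 10 tested genes had a positive log2FC in MT, beside 6761 of all 12921 genes tested. None of the 10 was called, and their median log2FC was 0.22 beside 0.07 over all genes. The groups did not overlap for 5 of the 10, all higher in MT, beside 32.9% of all genes tested that were higher without overlap.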
